A study of Mus musculus with 16 samples.

Results

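The mouse mitochondrial chromosome encodes 37 genes that the deposited count table lists with symbols starting with mt-: 13 mRNAs, 2 rRNAs and 22 tRNAs, of 45706 genes in all. They were chosen by that symbol alone and are described here in every library. Polyadenylated RNA of quadriceps muscle was sequenced from animals with a knock-out of NAMPT restricted to skeletal muscle (KO, 8 libraries) and from wild-type animals (WT, 8 libraries). NAMPT catalyses the slowest step in remaking NAD from nicotinamide, and the study's title sets muscle NAD loss against muscle ageing. The promoter that drives the deletion, the age and sex, and the number of animals behind each library, were not named in the labels. A p-value here sets a difference against the spread between libraries. Whether that is a spread between animals is not known. Values with ± are means and SD over n = 8 libraries of a genotype unless another n is named, and SE is the standard error of a log2 fold change.

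The mitochondrial genome is read from both strands as long precursor transcripts, which are cut largely at the tRNAs that lie between the other genes. The mRNAs encode core subunits of respiratory complexes I, III and IV and of ATP synthase (complex V), and the 2 rRNAs build the mitochondrial ribosome. Their nuclear partners are imported as proteins, so each of these complexes has subunits from both genomes. Most mitochondrial mRNAs receive a short poly(A) tail, which in several of them completes the stop codon. The rRNAs carry only a very short tail and mature tRNAs have none, so a library of polyadenylated RNA does not sample the 3 classes alike.

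In the annotation 3 mRNAs end on a single base after the last full codon. The last 24 bases of their annotated transcripts (GENCODE vM21, GRCm38, plus strand) are shown because they are the ends at which a tail must supply the rest of the stop codon, with that base in capitals. They are mt-Co3 at chrM:9367-9390, mt-Nd4 at chrM:11521-11544 and mt-Cytb at chrM:15265-15288. The end of mt-Co2 at chrM:7673-7696, with its full stop codon in capitals, is set beside them.
mt-Co3: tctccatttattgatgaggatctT
mt-Nd4: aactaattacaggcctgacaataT
mt-Cytb: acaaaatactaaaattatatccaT
mt-Co2: aactgatctgcttcaataattTAA

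The shortest mRNA, mt-Atp8, is 204 bases long at chrM:7766-7969. It is shown whole because it varied more between libraries than any other mt- gene tested, and its capitals mark the 43 bases it shares with the start of mt-Atp6. The 2 proteins are read from 1 bicistronic transcript in overlapping frames.
mt-Atp8: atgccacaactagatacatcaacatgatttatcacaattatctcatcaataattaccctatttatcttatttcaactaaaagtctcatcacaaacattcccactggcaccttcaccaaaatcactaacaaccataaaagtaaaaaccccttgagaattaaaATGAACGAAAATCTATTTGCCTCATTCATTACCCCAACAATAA

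Reads of several mRNAs cannot be told apart from nuclear copies of mitochondrial DNA. A block on the minus strand of chromosome 1 is annotated as unprocessed pseudogenes that match mitochondrial genes at 99% identity or more in their blastn alignments. The first 60 bases of mt-Co2 (chrM:7013-7072, plus strand) and of its copy Gm28661 (chr1:24615506-24615565, minus strand) are printed to show that no base separates them.
mt-Co2: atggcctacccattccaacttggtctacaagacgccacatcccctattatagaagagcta
Gm28661: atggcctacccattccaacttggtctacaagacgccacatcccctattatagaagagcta
The copy of mt-Co1, Gm29216, holds a stretch of differences near its start, and over its whole length it is 98.8% identical. A stretch of 33 bases of mt-Co1 (chrM:6381-6413, plus strand) and the matching bases of Gm29216 (chr1:24616165-24616197, minus strand) are printed with the 6 differing bases in capitals. Counted from 1 at the start of mt-Co1, they are T1056A, C1057T, A1059G, A1060G, C1062A and A1066T.
mt-Co1: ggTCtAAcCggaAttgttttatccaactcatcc
Gm29216: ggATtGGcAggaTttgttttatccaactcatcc

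Library totals were 16065394 to 51881258 estimated counts. Nampt, the targeted gene, was at 73.4 ± 9.30 CPM (counts of a gene per 1000000 of the library, scaled by TMM) in KO against 141.4 ± 12.0 in WT, and the groups did not overlap. The 9 skeletal muscle markers summed to 87000 to 102100 CPM in KO and 82630 to 102600 in WT. In KO libraries 1, 3, 5 and 8 the summary level of nuclear small RNAs that carry no poly(A) tail was above that of every WT library. Results that move with it are given with and without those libraries. By this rule only KO libraries could be set apart, and WT libraries 8 and 2, the highest in WT, were kept.

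Mitochondrial mRNAs made up a large and steady share of the libraries. Summed, the 13 mRNAs took 14.9% ± 1.38 of all counts in KO and 15.2% ± 1.04 in WT, from 13.2% to 17.7% over the 16 libraries. The 2 rRNAs took 0.462% ± 0.210 in KO and 0.299% ± 0.0553 in WT. Of 13792 genes tested with edgeR's quasi-likelihood test, 6 (0.0435%) passed at a Benjamini-Hochberg adjusted p under 0.05. Of the 37 mt- genes, the 15 mRNAs and rRNAs passed the low-count filter and were tested, and 0 of 15 were called. DESeq2 and limma also called 0. At an unadjusted p under 0.05, 2 of 15 passed, against 9.57% of all genes tested. Both were rRNAs and both were higher in KO, the direction in which 4.02% of all genes passed.

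**Figure D1:**
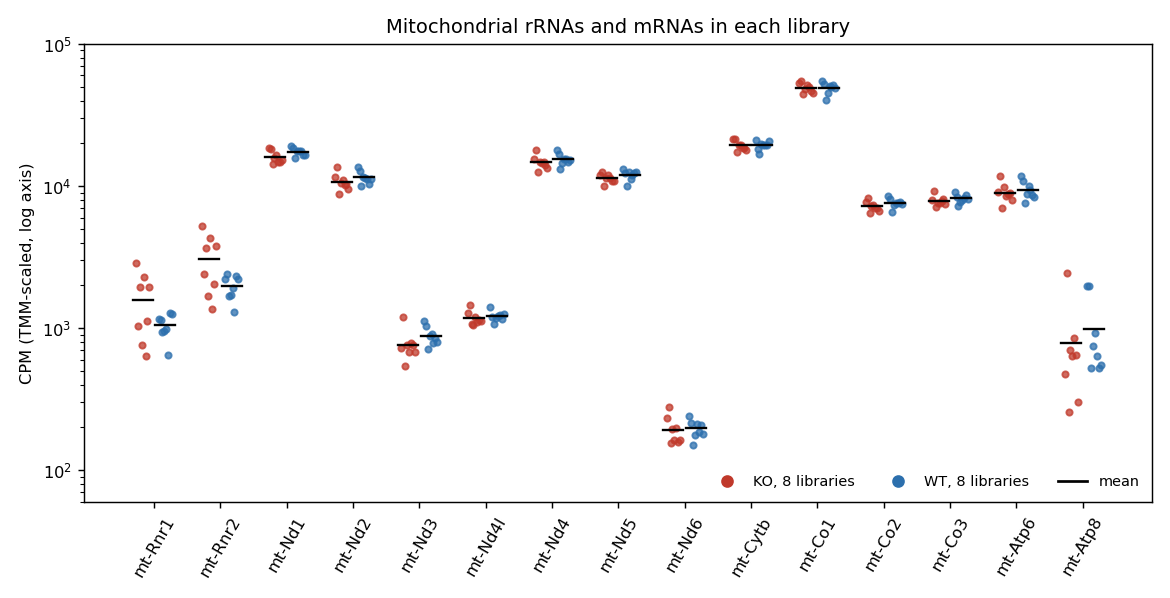
CPM (log axis) of the 2 rRNAs and 13 mRNAs in each of the 8 KO and 8 WT libraries, with group means as bars. The KO and WT points overlap in each of the 15 genes, and the KO points of mt-Rnr1, mt-Rnr2 and mt-Atp8 are the most spread.

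mt-Rnr1 is the RNA of the small mitochondrial ribosomal subunit. It ranged from 641 to 2883 CPM in the KO libraries (median 1528) and from 650 to 1287 in the WT libraries (median 1062). KO libraries 1, 3, 5 and 8 lay above every WT library, and the other 4 KO libraries lay within or just below the WT range. The means were 1576 ± 802 and 1046 ± 209 CPM. The log2 fold change was 0.59 with an SE of 0.26 and a 95% interval from 0.04 to 1.14 (edgeR, adjusted p = 0.473), and an exact two-sided permutation test of log2 CPM gave p = 0.163.

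mt-Rnr2, the RNA of the large subunit, followed the same libraries. It ranged from 1357 to 5202 CPM in the KO libraries (median 3036) and from 1298 to 2385 in the WT libraries (median 2059). The same 4 KO libraries stood above the WT range, KO library 2 lay level with the highest WT library and the remaining 3 lay inside it. The means were 3056 ± 1379 and 1967 ± 380 CPM, with a log2 fold change of 0.64, an SE of 0.23 and a 95% interval from 0.14 to 1.13 (edgeR, adjusted p = 0.365; exact permutation p = 0.074). The ratio of mt-Rnr2 to mt-Rnr1 was 2.00 ± 0.190 in KO and 1.89 ± 0.119 in WT, so the pair kept nearly the same proportion while their level varied 4.50-fold and 4.01-fold between libraries. Across the 16 libraries their log2 CPM had a Pearson r of 0.98 (Spearman rho 0.93, permutation adjusted p = 8e-05 for both). Without the 2 libraries farthest from the median, r was 0.97.

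The nuclear small RNAs were high in the same KO libraries. Among them is Rn7s1, an RNA of the signal recognition particle. Rn7s1 ranged from 9.09 to 240.8 CPM in the KO libraries (median 82.7) and from 8.46 to 100.3 in the WT libraries (median 15.1). KO libraries 1, 3, 5 and 8 were above every WT library, and WT libraries 8 and 2 led their group. Rn7s1 had a log2 fold change of 1.78 (edgeR, SE 0.67, adjusted p = 0.385).

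A score was taken per library as the mean log2(CPM + 0.5) of the 16 tested nuclear genes listed as making RNA without a poly(A) tail. They were 5 small RNAs and 11 histone genes. Of 61 listed histone genes 11 passed the low-count filter, and whether their RNA lacks a tail in this muscle was not tested. Their median log2 fold change was -0.12, against 1.76 for the small RNAs. Of 15 mt- genes, the 2 rRNAs had a correlation with the score that passed a Benjamini-Hochberg adjustment over the 15 (permutation test). For mt-Rnr1, Pearson r was 0.85 (adjusted p = 0.000375) and rho 0.70 (adjusted p = 0.0251), and for mt-Rnr2 r was 0.85 (adjusted p = 0.000375) and rho 0.70 (adjusted p = 0.0251). Without the 2 libraries farthest from the median score, r was 0.75 for mt-Rnr1 and 0.75 for mt-Rnr2 (adjusted p = 0.0171 for both), while rho was 0.56 for both and did not pass (adjusted p = 0.301). Within KO the exact permutation test gave r = 0.98 for both (adjusted p = 0.0026, n = 8), and within WT it gave 0.22 for mt-Rnr1 and 0.30 for mt-Rnr2 (adjusted p = 0.976, n = 8). Without KO libraries 1, 3, 5 and 8, r was 0.49 for mt-Rnr1 and 0.46 for mt-Rnr2 (adjusted p = 0.87, 12 libraries). Those 4 were picked by their small-RNA level, a part of the score. Leaving them out narrows the range of the score, so the lower r cannot show that the relation rests on them. With the small RNAs alone r was 0.855 for mt-Rnr1 and 0.858 for mt-Rnr2, and with the histone genes alone it was 0.18 for both (adjusted p = 0.512). The lowest r with the small RNAs were those of mt-Nd3 (-0.59, adjusted p = 0.0779) and mt-Atp8 (-0.54, adjusted p = 0.117; permutation test), and neither passed. With the histone genes alone, 3 mRNAs passed by rho over all libraries and 0 by r: mt-Nd1 (rho 0.70, adjusted p = 0.0268), mt-Nd2 (rho 0.70, adjusted p = 0.0268) and mt-Nd4l (rho 0.66, adjusted p = 0.0353; permutation test).

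Without those 4 libraries the log2 fold change of mt-Rnr1 was -0.23 (edgeR, adjusted p = 0.731) and that of mt-Rnr2 was -0.08 (adjusted p = 0.931). No WT library could be left out by that rule, so the fall of these values does not test a difference between genotypes. With the small-RNA score as a covariate over all libraries, the values were -0.04 for mt-Rnr1 and 0.10 for mt-Rnr2 (edgeR, adjusted p = 0.97 and 0.886). The 4 highest scores were all in KO. At an unadjusted p under 0.05, 4 of the 5 small RNAs passed higher in KO, the direction in which 4.02% of all tested genes passed. This fit therefore cannot separate the score from genotype. In the other 4 KO libraries mt-Rnr1 ranged from 641 to 1125 CPM and mt-Rnr2 from 1357 to 2386 CPM, beside WT ranges of 650 to 1287 and 1298 to 2385. The RNA integrity number of the labels was 8.61 ± 0.164 in KO and 8.56 ± 0.160 in WT. The part of carried-over RNA without a tail in the rRNA levels was not tested.

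**Figure D2:**
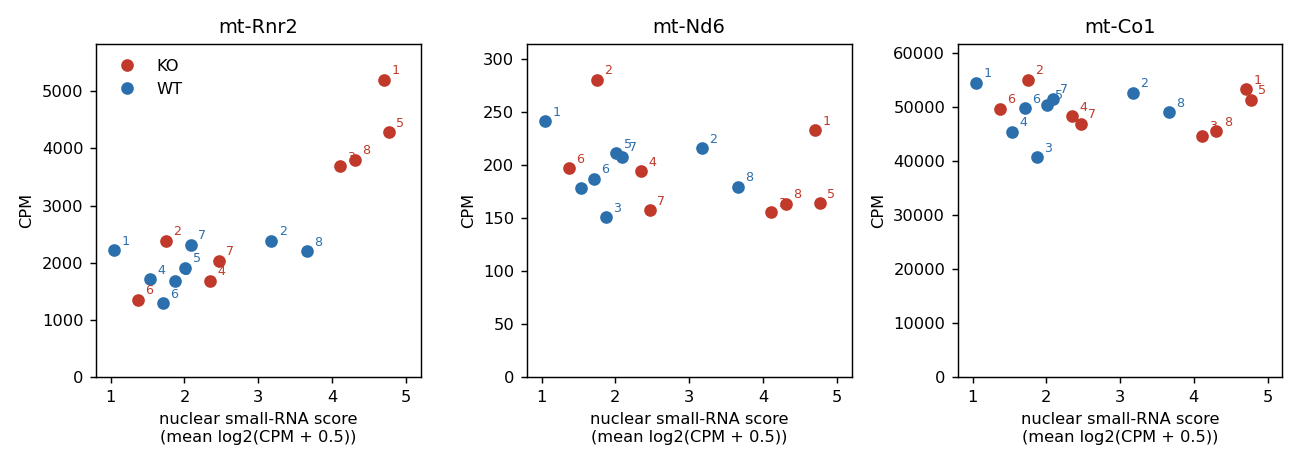
CPM of mt-Rnr2, mt-Nd6 and mt-Co1 against the nuclear small-RNA score (mean log2(CPM + 0.5) of 5 small RNAs) in each library, numbered within genotype. In mt-Rnr2 the 4 KO libraries at the highest scores stand above all others, and in mt-Nd6 and mt-Co1 they lie within the range of the other libraries.

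The mRNAs of complex I, the NADH dehydrogenase that passes electrons from NADH to ubiquinone, showed no called difference. There are 7 of them in the mitochondrial genome, and all 7 had a log2 fold change below 0. Levels of the mRNAs went together between libraries, as given below, so these signs are not independent. mt-Nd1, which encodes a membrane subunit next to the ubiquinone site, ranged from 14388 to 18450 CPM in the KO libraries (median 15573) and from 15846 to 19272 in the WT libraries (median 17607). Most KO libraries lay below most WT libraries, 2 of 8 KO libraries were above the WT mean, and the groups overlapped. Its log2 fold change was -0.12 with an SE of 0.06 and a 95% interval from -0.25 to 0.01 (edgeR, adjusted p = 0.561; exact permutation p = 0.0573).

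mt-Nd2, which encodes a subunit of the proton-pumping membrane arm, ranged from 8813 to 13588 CPM in the KO libraries (median 10439) and from 9938 to 13621 in the WT libraries (median 11255). The groups overlapped, with KO library 2 and WT library 1 the highest of each, and 2 of 8 KO libraries were above the WT mean. The log2 fold change was -0.10 (edgeR, SE 0.08, adjusted p = 0.742).

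mt-Nd3, a short membrane subunit, ranged from 540 to 1195 CPM in the KO libraries (median 740) and from 711 to 1114 in the WT libraries (median 865). KO library 2 was the highest of all and KO library 3 the lowest, and 7 of 8 KO libraries were below the WT mean. The log2 fold change was -0.21 with an SE of 0.13 and a 95% interval from -0.47 to 0.05 (edgeR, adjusted p = 0.632), and it was -0.02 without KO libraries 1, 3, 5 and 8.

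mt-Nd4l and mt-Nd4 encode membrane subunits, share 7 bases and are carried on 1 bicistronic transcript. mt-Nd4l ranged from 1051 to 1444 CPM in the KO libraries and from 1068 to 1397 in the WT libraries, and mt-Nd4 from 12579 to 17946 CPM in the KO libraries and from 13109 to 17861 in the WT libraries. Both pairs of ranges coincide almost fully. The log2 fold changes were -0.05 (SE 0.07, adjusted p = 0.870) for mt-Nd4l and -0.07 (SE 0.07, adjusted p = 0.797) for mt-Nd4 (edgeR). Their log2 CPM had r = 0.85 (adjusted p = 0.000107) and rho = 0.80 (adjusted p = 0.000667) by a permutation test over 16 libraries. Without the 2 farthest libraries r was 0.70. Over all 78 pairs of mRNAs r ran from 0.465 to 0.96, with a median of 0.806. The value of this pair was therefore near that of mRNA pairs in general.

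mt-Nd5 encodes the largest subunit of the membrane arm, and mt-Nd6 is the only mRNA of the other strand. The 2 genes face each other and share 14 bases. mt-Nd5 ranged from 9984 to 12526 CPM in the KO libraries (median 11414) and from 9993 to 13222 in the WT libraries (median 12282), with a log2 fold change of -0.08 (edgeR, SE 0.06, adjusted p = 0.724). mt-Nd6 ranged from 156 to 281 CPM in the KO libraries (median 179) and from 151 to 242 in the WT libraries (median 197), with KO libraries 2 and 1 the highest in KO. Its log2 fold change was -0.02 with a 95% interval from -0.28 to 0.23 (edgeR, adjusted p = 0.977), and it was 0.08 without KO libraries 1, 3, 5 and 8.

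mt-Cytb encodes cytochrome b, the mitochondrial subunit of complex III, which passes electrons from ubiquinol to cytochrome c. It ranged from 17446 to 21536 CPM in the KO libraries (median 18999) and from 16846 to 21207 in the WT libraries (median 19414), so the 2 groups cover the same range. The means were 19344 ± 1505 and 19354 ± 1344 CPM, and the log2 fold change was -0.00 with a 95% interval from -0.12 to 0.12 (edgeR, adjusted p = 0.999). The sign of so small a value turned under 6 alternatives: 2 scalings, a filter, 2 covariates and the fit without KO libraries 1, 3, 5 and 8. It also turned in 8 of 16 fits without 1 library.

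The 3 mRNAs of complex IV, cytochrome c oxidase, were among the steadiest. mt-Co1 encodes the catalytic subunit that reduces oxygen and ranged from 44675 to 54996 CPM in the KO libraries (median 48933) and from 40627 to 54461 in the WT libraries (median 50071). The lowest value was WT library 3 and the highest KO library 2, with the groups mixed between them. The log2 fold change was 0.00 with an SE of 0.06 and a 95% interval from -0.13 to 0.14 (edgeR, adjusted p = 0.995).

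mt-Co2, the subunit that receives electrons from cytochrome c, ranged from 6435 to 8173 CPM in the KO libraries and from 6548 to 8569 in the WT libraries, with a log2 fold change of -0.08 (edgeR, SE 0.06, adjusted p = 0.716). mt-Co3, a membrane subunit that supports the catalytic core, ranged from 7090 to 9215 CPM in the KO libraries and from 7211 to 9049 in the WT libraries, with a log2 fold change of -0.06 (edgeR, SE 0.06, adjusted p = 0.796). In both genes the group ranges overlapped. The medians were 7155 CPM in KO and 7616 in WT for mt-Co2, and 7719 and 8203 for mt-Co3. Above the WT mean were 2 of 8 KO libraries in mt-Co2 and 1 of 8, KO library 2, in mt-Co3.

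The 2 mRNAs of ATP synthase differed from each other in how much they varied. mt-Atp6 encodes the subunit that forms the proton path beside the rotor and ranged from 7022 to 11794 CPM in the KO libraries (median 8871) and from 7545 to 11709 in the WT libraries (median 9089). Its highest libraries were KO 2, WT 1 and WT 2, and its range was 1.68-fold. The log2 fold change was -0.06 with an SE of 0.10 (edgeR, adjusted p = 0.897), and 0.07 without KO libraries 1, 3, 5 and 8.

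mt-Atp8, a small subunit of the membrane part, ranged from 256 to 2425 CPM in the KO libraries (median 642) and from 520 to 1981 in the WT libraries (median 692). KO library 2 (2425 CPM), WT library 1 (1979 CPM) and WT library 2 (1981 CPM) were high, the other 13 lay at or below 923 CPM, and KO libraries 3 and 8 were the lowest. KO libraries 1, 3, 5 and 8 lay at 256.3 to 638.5 CPM and the other 4 KO libraries at 645.9 to 2425. The log2 fold change was -0.32 with an SE of 0.43 and a 95% interval from -1.21 to 0.58 (edgeR, adjusted p = 0.862). It was 0.24 without KO libraries 1, 3, 5 and 8, -0.83 without KO library 2, and -0.09 without WT library 1 or without WT library 2. On the linear scale the interval of mt-Atp8 covers KO levels from 0.431 to 1.49 times those of WT.

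The range of mt-Atp8 was 9.46-fold, and those of the other 12 mRNAs ran from 1.28-fold to 2.21-fold. The same 3 libraries were highest in mt-Atp8 and in mt-Atp6, and the log2 CPM of the pair had r = 0.92 (adjusted p = 8e-05) and rho = 0.82 (adjusted p = 0.000667) over 16 libraries by a permutation test. Without the 2 farthest libraries r was 0.84, and the exact permutation test gave r = 0.92 within KO (adjusted p = 0.0115; rho 0.76, adjusted p = 0.0735) and r = 0.92 within WT (adjusted p = 0.0045; rho 0.93, adjusted p = 0.00893). Over all 78 pairs of mRNAs r ran from 0.465 to 0.96 (median 0.806), so a high r was common among them. The ratio of mt-Atp6 to mt-Atp8 ran from 4.86 in KO library 2 to 27.4 in KO library 3. The 43 shared bases printed above belong to both genes, so the split between the 2 rests on the authors' counting. The nuclear copy of mt-Atp6, Gm10925, differs from it at 0 of 678 bases but ranged only 1.18-fold. It lay at 5633 to 6661 CPM in KO and 5987 to 6608 in WT. How mt-Atp6 and this copy divide their counts also rests on that counting. The relation of mt-Atp8 with mt-Atp6 and its copy summed was not computed.

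**Figure D3:**
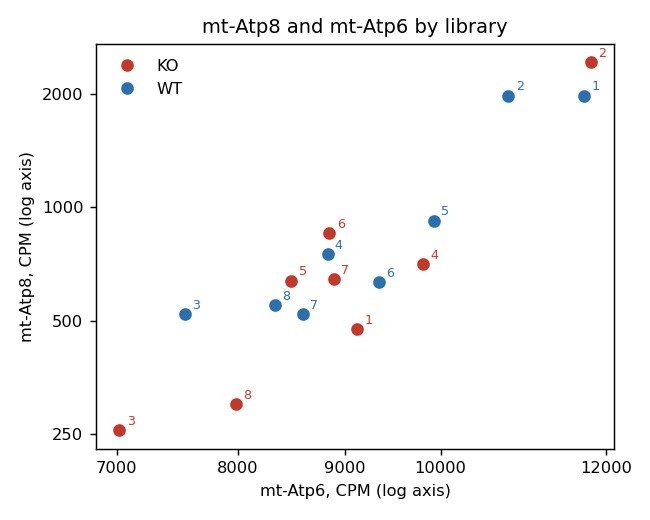
CPM of mt-Atp8 against mt-Atp6 (both log axes) in each library, numbered within genotype. KO library 2 and WT libraries 1 and 2 lie at the upper right and KO libraries 3 and 8 at the lower left. mt-Atp8 covers 9.46-fold and mt-Atp6, counted without its nuclear copy, 1.68-fold.

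The mRNAs also shared their high and low libraries across complexes. KO library 2 was the highest of the 16 libraries in 9 of 13 mRNAs, and WT library 1 in the other 4. KO library 3 was the lowest in 9 of 13 mRNAs, WT library 3 in 3 and KO library 4 in 1. Both genotypes thus held a library at the top and one at the bottom. KO library 2 had the fewest counts of the 16 libraries (16065394) and WT library 3 the most (51881258). WT library 1 (25193512) and KO library 3 (30294369) lay between them, and the part of depth was not tested. CPM are shares of 1 library's counts. Fewer cells of a type, fewer mitochondria and less RNA per mitochondrion cannot be told apart in bulk muscle.

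Over all 13 mRNAs, 12 had a log2 fold change below 0, with a median of -0.07, beside a median of 0.00 over all tested genes, of which 7146 of 13792 were above 0. Without KO libraries 1, 3, 5 and 8, 8 of 13 mRNAs were below 0, with a median of -0.01. The mRNAs went together between libraries (median r of 0.806 over 78 pairs), so their signs are not independent. Intervals (95%) that stayed within 1.5-fold up or down were found for 12 of 13 mRNAs, all but mt-Atp8. With the rRNAs this makes 12 of 15 (80.0%), and over all tested genes it was 11884 of 13792 (86.2%).

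**Figure D4:**
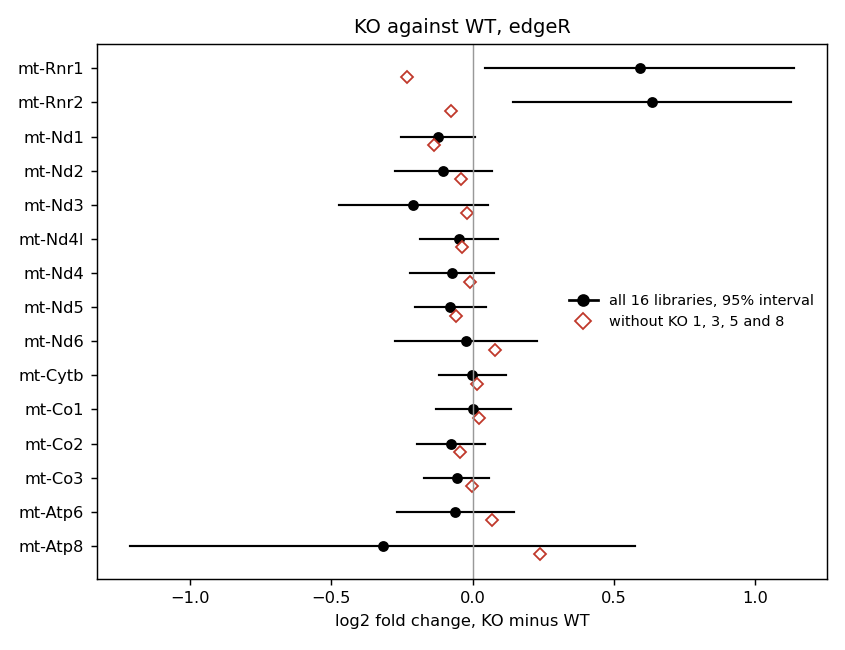
Log2 fold change (KO minus WT, edgeR) of the 15 tested mt- genes with 95% intervals, and the value without KO libraries 1, 3, 5 and 8 as open diamonds. The intervals of mt-Rnr1 and mt-Rnr2 lie above 0 with all libraries and their diamonds lie below it. The interval of mt-Atp8 is the widest, from -1.21 to 0.58.

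The 22 tRNA genes, which decode the mitochondrial code and punctuate the precursors, were nearly absent from these libraries. They are 59 to 75 bases long, and the reads were 52 bp from each end. Their counts summed to 75 over all 16 libraries, between 0 (KO library 5) and 10 (KO library 1) in each, and 0 of 22 passed the filter. As CPM of the raw totals they summed to 0.211 ± 0.184 in KO and 0.149 ± 0.0660 in WT. Of the 22, 8 had any count and 14 were at 0 in all 16 libraries. For each of those 14 a count of 0 allows up to 0.00672 CPM over the libraries together (3 counts, counting error only).

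The tRNA with the most counts was mt-Tm, the methionine tRNA that serves both start and elongation, with 30 counts in 13 libraries and at most 4 in any. mt-Tl1, a leucine tRNA just after mt-Rnr2, had 14 counts in 9 libraries, and mt-Tp, the proline tRNA at the other end of the gene block, had 9 counts in 7. None of these allows a comparison of genotypes. mt-Tm is shown whole (chrM:3845-3913, plus strand) to make its length visible beside the reads, with the letters of its anticodon in capitals.
mt-Tm: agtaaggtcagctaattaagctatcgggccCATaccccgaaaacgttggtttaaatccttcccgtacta

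The order of mRNA levels depended on the nuclear copies. There were 7 copies at 99% identity or more by blastn alignment, and together they took 2.68% ± 0.216 of counts in KO and 2.79% ± 0.135 in WT. Gm28661 held 52.4% ± 0.592 of the counts of its pair with mt-Co2 (SD over 16 libraries), with 0 of 681 bases different. Gm28437 held 50.4% ± 0.202 of its pair with mt-Co3 (0 of 783 bases) and Gm10925 held 40.4% ± 3.28 of its pair with mt-Atp6 (0 of 678 bases). The first 2 shares were near an even split in every library, and that of Gm10925 stayed below it in all 16 (34.2% to 45.1%).

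Gm10222 held 49.2% ± 0.660 of its pair with mt-Nd4l (0 of 294 bases) and Gm28438 held 48.3% ± 1.32 of its pair with mt-Nd3, from which it differs by T3C alone in 345 bases. Gm28439, which covers only the first 876 bases of mt-Nd4 and differs at 0 of them, held 4.71% ± 1.14. Gm29216, which covers bases 1054 to 1545 of mt-Co1 with the 6 differences printed above, held 4.37% ± 0.666. The 4 copies outside the naming rule were chosen after their values were seen. None of the 7 copies was called (log2 fold changes from -0.27 to 0.01, edgeR), and adding each copy to its member left 0 of 15 mt- genes called.

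Levels can be compared between genes only per length. Counted alone and given as mean CPM per kilobase over the 16 libraries, mt-Co1 was highest at 31890, followed by mt-Nd1 at 17500, mt-Cytb at 16910 and mt-Atp6 at 13490. mt-Co2 stood sixth at 10850 and mt-Co3 eighth at 10240. With its copy added, mt-Co2 reached 22780 and moved to second, mt-Atp6 reached 22560 and mt-Co3 20640, ahead of mt-Nd1 and mt-Cytb, which have no such copy. mt-Nd4l went from 4019 to 7906 and mt-Nd3 from 2370 to 4571. The top place of mt-Co1 (33330 with its copy) did not depend on this, and its libraries did not overlap those of the next gene either way.

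At the lower end, mt-Atp8 stood at 4339 CPM per kilobase, mt-Rnr2 at 1588, mt-Rnr1 at 1373 and mt-Nd6 at 375.4. The ranges of mt-Rnr2 and mt-Rnr1 overlapped, and mt-Nd6 lay below both in every library range. With copies added, the ranges of mt-Co2, mt-Atp6, mt-Co3, mt-Nd1 and mt-Cytb formed a chain in which each overlapped the next below it. Within a library the order was firmer for 2 of these pairs: mt-Atp6 was above mt-Co3 in 16 of 16 libraries (ratio 1.09 ± 0.0488, SD, n = 16) and mt-Co3 above mt-Nd1 in 16 of 16 (1.18 ± 0.0823). mt-Co2 was above mt-Atp6 in 11 of 16 (1.01 ± 0.0340), and mt-Nd1 above mt-Cytb in 11 of 16 (1.04 ± 0.0723), so these neighbours were not separated by the libraries. The rRNAs are the most abundant mitochondrial RNAs in a cell as a rule. Their place here, like that of mt-Nd6, is a level in polyadenylated RNA only.

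**Figure D5:**
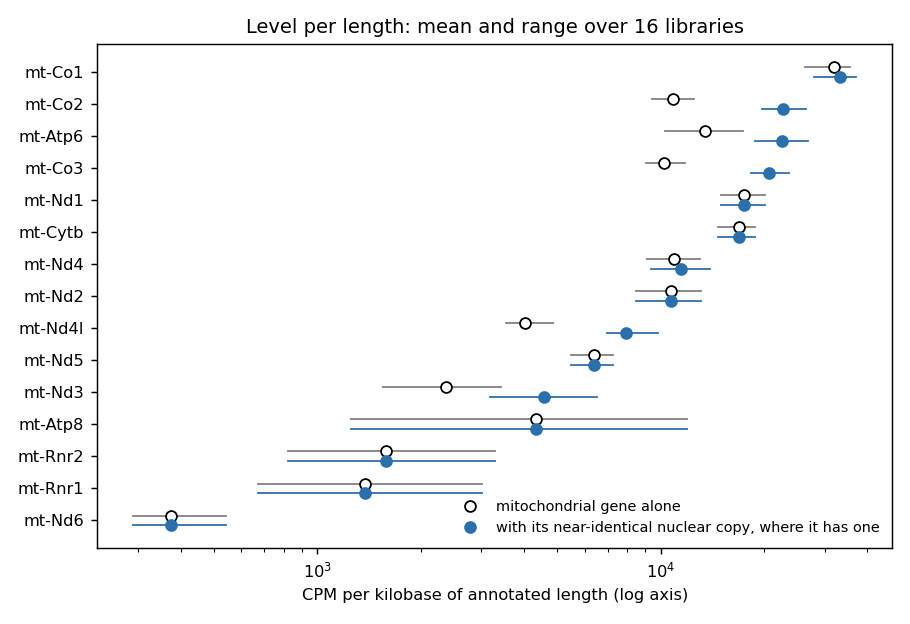
Mean CPM per kilobase (log axis) of each mRNA and rRNA over 16 libraries, with the range as a line, for the mitochondrial gene alone (open) and with its near-identical nuclear copy added (filled). mt-Co2, mt-Co3, mt-Nd3 and mt-Nd4l move furthest, and mt-Co1 is the highest and mt-Nd6 the lowest in both.

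The nuclear genes that work with the mitochondrial transcripts also had 0 called members in each list. Among 36 tested nuclear subunits of complex I, the median log2 fold change was -0.01, and 3 of 36 passed an unadjusted p under 0.05, all lower in KO, the direction in which 5.55% of all tested genes passed. Ndufs1, the largest iron-sulphur subunit, had a log2 fold change of -0.02 (edgeR, adjusted p = 0.937). The medians were -0.02 for 9 genes of complex III, 0.04 for 15 of complex IV and 0.00 for 17 of complex V. In these lists 0 genes passed an unadjusted p under 0.05. Their most abundant members were Uqcrc1 (0.00) and Uqcrc2 (0.02), core proteins of complex III, Cox6a2 (0.11) and Cox4i1 (-0.02) of complex IV, and Atp5b (0.05) and Atp5a1 (0.03), the catalytic-head subunits of ATP synthase.

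Genes that copy, read and process the mitochondrial genome had 0 called members as well. Of 14 genes of mitochondrial DNA replication and nucleotide supply, the median log2 fold change was -0.01, with Polg, the replicative polymerase, at -0.02 and Slc25a36, a pyrimidine nucleotide carrier, at 0.05. Of 10 tested genes of mitochondrial transcription the median was -0.07 and 7 lay below 0. In that list 2 passed an unadjusted p under 0.05, both lower in KO, the direction in which 5.55% of all tested genes passed. The most abundant there were Mrpl12, a ribosomal protein that also binds the polymerase (-0.06), and Tfb2m, an initiation factor (-0.06). Of 21 genes of mitochondrial RNA processing, polyadenylation and decay the median was -0.02, with Fastk at -0.09 (adjusted p = 0.473, edgeR) and Grsf1, an RNA granule protein, at 0.02. Of 20 genes that modify mitochondrial rRNA and tRNA the median was -0.01, with Mto1 at 0.01 and Trub2 at 0.11. At an unadjusted p under 0.05, 1 gene of RNA processing passed, lower in KO. Among the modifying genes 1 passed lower and 1 higher in KO, and 0 passed in the replication list. Over all tested genes 4.02% passed higher in KO.

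Between libraries, mt-Co1 went with the nuclear genes of complex IV. Its log2 CPM and the mean of the 15 nuclear complex IV genes had r = 0.79 (adjusted p = 0.00044) and rho = 0.78 (adjusted p = 0.00112) by a permutation test over 16 libraries, among 8 relations computed. Without the 2 farthest libraries r was 0.67 (adjusted p = 0.0177). The exact permutation test gave r = 0.92 within WT (adjusted p = 0.0045) and r = 0.71 within KO (adjusted p = 0.0821), and the difference between the 2 was not tested. No mt- gene was set against nuclear genes of another complex, so a link particular to complex IV was not tested. WT library 3 had the lowest nuclear mean for complexes I, III, IV and V alike.

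For the other complexes r was lower, and these differences were not tested. mt-Cytb with complex III had r = 0.66 (adjusted p = 0.00681), mt-Nd1 with complex I had r = 0.52 and mt-Atp6 with complex V had r = 0.51 (adjusted p = 0.0414 for both, permutation test). By rho mt-Cytb passed (0.61, adjusted p = 0.0174), and mt-Nd1 (0.46, adjusted p = 0.0818) and mt-Atp6 (0.44, adjusted p = 0.0922) did not. Without the 2 farthest libraries r was 0.45, 0.47 and 0.24, and 0 of the 3 passed. Fibre-type markers varied over the same libraries: the 11 slow-fibre genes summed to 607 to 1064 CPM in KO and 302 to 1076 CPM in WT, and the 6 glycolytic fast-fibre genes to 103500 to 129900 CPM in KO and 117600 to 141700 in WT. Of the glycolytic genes 6 of 6 had a log2 fold change below 0 (median -0.07) and 0 were called. At an unadjusted p under 0.05, 2 of the 6 passed, lower in KO, the direction in which 5.55% of all tested genes passed. Of the slow-fibre genes 11 of 11 were above 0 (median 0.30) and 0 were called, with Myh7, the slow myosin heavy chain, at 239.8 ± 63.6 CPM in KO and 193.1 ± 117 in WT. Over all 13792 tested genes 7146 were above 0 and 6646 below. The mean log2(CPM + 0.5) of the slow-fibre genes was lowest in WT libraries 8 (4.12) and 3 (4.48). It lay at 5.15 to 5.98 in KO and reached 5.97 in WT. The part of the fibre-type genes in the mitochondrial values was not tested.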

How the data were processed

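The authors deposited an unscaled table of Salmon's estimated counts, 1 row for each gene, in which 11.1% of values were not whole numbers. The submitters' processing notes name GRCm38 and the tools bcl2fastq (version 4.0.3), STAR and Salmon. The annotation release, the strand setting and the other tools' versions were not named there. The labels' protocols describe paired reads of 52 bp from a poly(A) kit. Every table column matched a library.

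Counts were rounded and KO and WT were compared over the whole table with edgeR 4.0.16 (R 4.3.3; quasi-likelihood test, TMM, default low-count filter, no covariate), with Benjamini-Hochberg adjustment over 13792 genes. Intervals are 95% intervals. CPM use TMM-scaled library sizes, and shares use raw totals. Correlations used log2 CPM for the mt- genes and the mean log2(CPM + 0.5) for the list scores. They had 100000 permutations over 16 libraries and all orders within a genotype. Copies were found by blastn 2.17.0 of GENCODE vM21 transcripts (at least 100 bases, 90% identity) and then compared base by base over their whole length without gaps.

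All 15 mRNAs and rRNAs are named, of the tRNAs the 3 and of each pathway list the 2 with the highest mean CPM, and of the copies the 3 highest. A gene that this rule takes is not reported here. Of the list symbols, 4 had no match in the table. Members, lists and rules were chosen with earlier results of these data known. Alternatives were other scalings, filters and covariates, the replicate block, DESeq2 1.42.0, limma 3.58.1 and each library left out. The 8 relations of mt- genes with each other and with nuclear partners, and the fits without the libraries rich in small RNA, with the small-RNA score or with copies added, were chosen after seeing the data.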

Additional observations from a re-analysis of the deposited data

Results flagged for a closer look

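In KO library 2, 3 mRNAs stood apart from the other 7 KO libraries by a gap to the next library that is above the 95% limit of Dixon's test, as a share of the group's range. mt-Atp8 was at 2425.2 CPM (gap 0.724 of the range), mt-Nd3 at 1194.8 CPM (0.625) and mt-Co3 at 9214.9 CPM (0.540). Of 36 groups examined, 3 were so marked, and chance marks about 1 in 20. KO library 2 also had the fewest counts of the 16 libraries (16065394). Without KO library 2 the log2 fold change was -0.83 for mt-Atp8 (edgeR, adjusted p = 0.432) and 0 of 15 mt- genes were called.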

How the results depend on the processing

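The count of called mt- genes was 0 in every alternative run. Over all genes the count of 6 was 2 with RLE size factors, 3 with no low-count filter, 2 with the replicate block, 96 with DESeq2 and, in alternatives chosen after seeing the data, 2 without KO libraries 1, 3, 5 and 8 and 2 with the small-RNA covariate. Leaving out 1 library gave 2 to 8, with 2 or 3 without KO 1, 2, 3, 5 or 8 or WT 2, 3, 4, 5, 6 or 8. Library numbers paired the samples in neither labels nor data: same-numbered libraries had r from -0.109 to 0.247, 3 of 8 above 0.1, and 2 KO libraries correlated best with their own number. Under the replicate block mt-Nd1 had an adjusted p of 0.399 (edgeR).

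Without KO libraries 1, 3, 5 and 8, signs turned for mt-Rnr1 (-0.23), mt-Rnr2 (-0.0754), mt-Atp8 (0.24), mt-Atp6 (0.0681), mt-Nd6 (0.0775) and mt-Cytb (0.0140), and the difference in rRNA share went from 0.162 to -0.0188 percentage points. With the small-RNA covariate they turned for mt-Rnr1 (-0.0410), mt-Atp6 (0.0236), mt-Nd6 (0.0513) and mt-Cytb (0.0066). mt-Cytb was also 0.0070 with upper-quartile scaling, 0.0008 with scaling without mt- genes, 0.0010 with at least 1 CPM in 8 libraries and 0.0043 with RIN as covariate. Leaving out 1 library gave -0.0319 to 0.0249 for mt-Co1, -0.120 to 0.0240 for mt-Nd6 and -0.0266 to 0.0193 for mt-Cytb. The cause was not tested. Of 15 mt- genes, 2 had a Pearson correlation that passed with the RNAs listed as without a tail (all listed or small RNAs alone). Within WT or without those 4 libraries 0 did. With histones alone it was 0 over all libraries, within KO, within WT and without those 4, and 1, mt-Nd1, without the 2 farthest. By rho the histone counts were 3 over all libraries, 4 without the 2 farthest, 2 without those 4 and 0 within a genotype. At this depth the tRNAs could not be compared.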
